A study of Mus musculus with 11 samples.

Results

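The tamoxifen by rapamycin interaction asks whether the 2 drugs together left the mouse stomach where their separate changes would have put it. On the log2 scale the additive expectation for the combined group is the tamoxifen mean plus the rapamycin mean minus the vehicle mean, and the interaction is the observed combined mean minus that expectation. It equals the tamoxifen change with rapamycin minus the tamoxifen change without it, so a positive value puts the combined group above the expectation and a negative value below it. It was computed for 22180 genes from 9 whole-stomach arrays of the 11 arrays in the series, with 1 probe set per gene, that of highest mean.

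All stomachs came from adult C57Bl/6 mice that were injected daily into the peritoneum. The vehicle group (n = 2) received sunflower oil. The tamoxifen group (n = 2) received 5 mg of tamoxifen per 20 g of mouse for 3 days, and the rapamycin group (n = 3) received 0.6 mg of rapamycin per 20 g for 10 days. The combined group (n = 2) received both drugs at these doses and times. The labels call the arrays biological replicates, without saying whether each holds 1 mouse, so p-values measure the spread between these samples. The other 2 arrays, of isolated parietal cells and of the stomach cells left after their removal, take no part in the interaction.

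Tamoxifen binds oestrogen receptors, and in the gastric corpus high doses are known to kill acid-secreting parietal cells, after which chief cells lower their digestive enzyme genes and gland cells proliferate. Rapamycin inhibits mTORC1, the kinase complex that couples nutrients and growth signals to protein synthesis, lipid synthesis and cell division. Crossing the drugs addresses whether mTORC1 activity bears on the gastric response to tamoxifen injury. The deposited values are log2 expression, so 1 unit is a doubling and additivity on this scale means that fold changes multiply.

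The arrays carried the stomach's defining transcripts. Atp4a, the catalytic subunit of the acid pump, read 12.19 to 13.32 on all 9 arrays, and Pgc, encoding pepsinogen C, read 13.66 to 13.97. Genes of the squamous forestomach, which lines the upper part of the rodent stomach, differed between arrays within groups. Their mean over 14 genes was 5.20 and 4.85 with vehicle, 9.83 and 5.00 with tamoxifen, 9.79, 8.58 and 5.53 with rapamycin, and 9.06 and 9.41 with both drugs. With this mean as a covariate in the fit, the interactions of all 82 genes named by rule kept their sign. Those genes had been picked by small interaction p on these same arrays, so a kept sign says little. Of 52 list medians, 51 moved by less than 1 SD between replicates. The part of forestomach tissue in the interactions was not tested. Fat-tissue genes also differed between arrays of a group, and their values stand beside the lipid genes. In bulk stomach, fewer cells of a type and less RNA per cell cannot be told apart.

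No gene passed the test for an interaction. With limma and Benjamini-Hochberg adjustment over all genes, 0 of 22180 (0%) had an adjusted p under 0.05, and the smallest adjusted p was 0.223. Without adjustment, 281 genes (1.27%) had a positive and 346 (1.56%) a negative interaction at p under 0.05, which is fewer in all than the test's own 5% level would give among genes with no interaction. The median interaction was -0.01, the median size 0.15 and the median SE 0.25. For a typical gene the 95% interval reached 0.57 to either side, so smaller deviations from additivity lay within the error of single genes. Estimates of at least 1 log2 unit were found in 69 genes upwards and 101 downwards, and 10 and 4 of these were at least 2 units. A gene standing alone would have needed an unadjusted p of 2.25e-06 to be called. All interaction values below are therefore estimates with their errors, not calls.

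Across the stomach the tamoxifen changes with and without rapamycin ran alike. Tamoxifen alone raised 207 genes (0.933%) and lowered 174 (0.784%) against vehicle by limma's adjusted p, and tamoxifen on top of rapamycin raised 251 (1.13%) and lowered 292 (1.32%) against rapamycin. These comparisons share no arrays. Of the 207 genes raised without rapamycin, 205 were also higher with it and 118 were called there, which is 57.0% of the first list and 47.0% of the second. Of the 174 lowered genes, 167 were also lower with rapamycin and 135 were called, which is 77.6% and 46.2% of the lists. No gene was called in opposite directions. The median change of the raised genes was 0.998 without and 0.80 with rapamycin, and that of the lowered genes was -1.21 and -1.12, where the genes had been picked on the first value of each pair. Across genes, which are not independent replicates, Pearson's r between the tamoxifen changes was 0.663 and Spearman's rho 0.486.

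**Figure D1:**
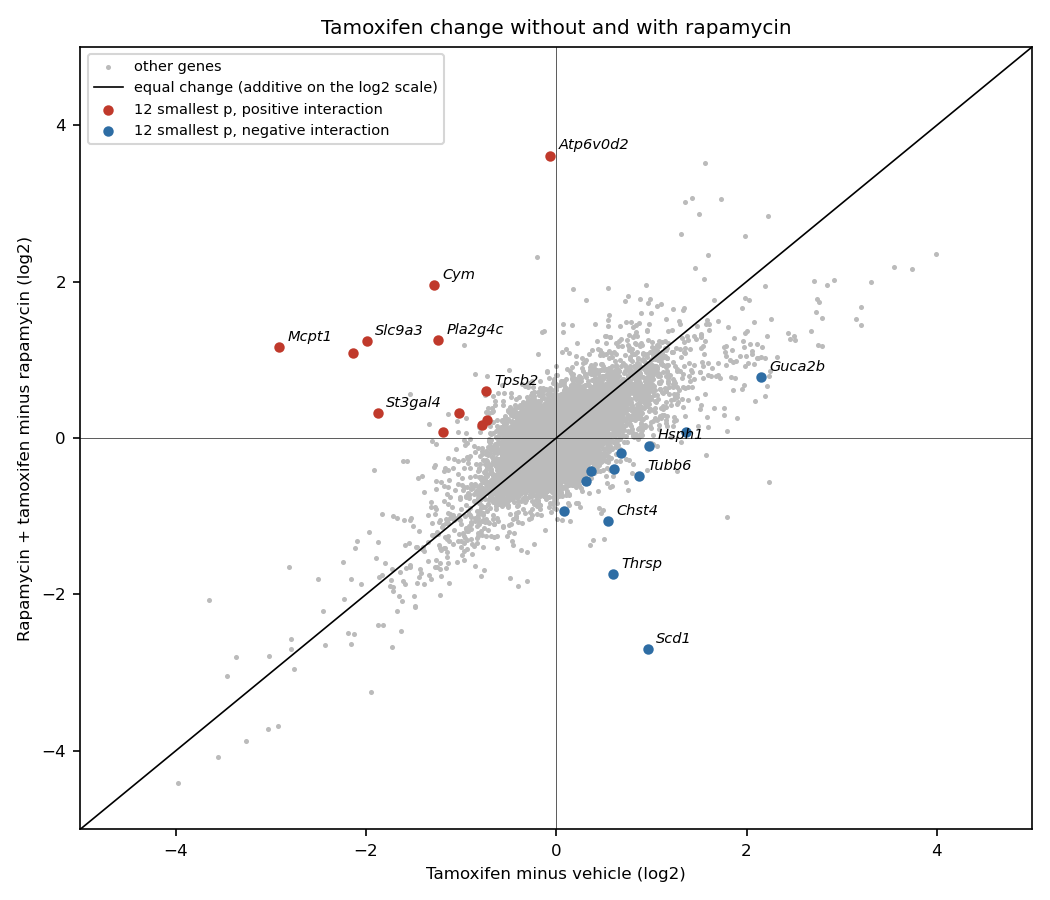
Each point is 1 of 22180 genes, with the tamoxifen change against vehicle on the x axis and the change of the combined group against rapamycin on the y axis, both in log2 units. The black diagonal marks equal changes, and the coloured points are the 12 genes of smallest interaction p on each side, which lie above it (positive, red) or below it (blue) while no gene passed adjustment.

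Lists of mitosis, DNA replication, ribosome biogenesis and parietal cell genes had median interactions between -0.20 and 0.08. The median half-widths of their members' intervals were 0.50 to 0.65, so smaller departures from additivity could not be seen. The mitosis list holds kinases, cyclins, kinesins and kinetochore genes of dividing cells. Its mean over 19 genes was 7.27 and 7.32 with vehicle, 8.19 and 8.40 with tamoxifen, 6.74, 6.65 and 6.62 with rapamycin, and 7.81 and 7.68 with both drugs. The 4 groups did not overlap, with rapamycin lowest and tamoxifen highest. Tamoxifen raised 13 of the 19 genes without rapamycin (median 1.01) and 16 of 19 with it (median 1.08), against 0.933% and 1.13% of all genes. Rapamycin alone lowered 0 of them by the test (against 0.0406% of all genes), with a median of -0.63, and with tamoxifen present the median was -0.55. The interaction had a median of 0.08 and ran from -0.18 to 0.32, 0 members reached an unadjusted p under 0.05 in either direction, and the median half-width of the members' intervals was 0.56.

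Top2a, the topoisomerase that untangles replicated chromosomes, shows the pattern. It read 7.58 and 7.85 with vehicle, 8.79 and 9.21 with tamoxifen, 7.05, 6.73 and 6.84 with rapamycin, and 8.48 and 8.25 with both. Tamoxifen raised it by 1.29 alone and by 1.49 on rapamycin (limma adjusted p 0.0185 and 0.00473), an interaction of 0.20 ± 0.26. Both tamoxifen-treated groups lay above both groups without tamoxifen. This gene was chosen as an illustration after its values were seen.

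Genes that copy DNA and build ribosomes also stood higher with tamoxifen, with and without rapamycin. Their interactions leaned negative, with 17 of 20 below 0 for DNA replication, while 12 of 19 mitosis interactions were above 0. Of 20 DNA replication genes, such as helicase subunits and polymerases, tamoxifen raised 14 without rapamycin (median 0.94) and 12 with it (median 0.82), against the same 0.933% and 1.13% of all genes, and the median interaction was -0.10 with 0 members at p under 0.05. Ribosome biogenesis, a process that mTORC1 is known to promote, had 5 of 15 genes raised by tamoxifen without rapamycin (median 0.73) and 3 with it (median 0.50), against the same shares. Its 15 interactions were all negative but small, with a median of -0.19 and a lowest value of -0.49. That lowest member was Nop56, a core protein of box C/D small nucleolar ribonucleoproteins, at -0.49 ± 0.22, and another of its probe sets pointed the other way.

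Parietal cell genes stood lower with tamoxifen whether or not rapamycin was given. The mean of 16 parietal genes was 10.12 and 10.17 with vehicle, 8.98 and 9.45 with tamoxifen, 10.17, 10.46 and 10.23 with rapamycin, and 9.07 and 9.25 with both. Both tamoxifen-treated groups lay below both others and overlapped each other. Tamoxifen lowered 2 members without rapamycin (median -0.79) and 8 with it (median -0.94), against 0.784% and 1.32% of all genes. A larger number of calls is no test of a difference. The median interaction was -0.20, from -0.67 to 0.39, with 14 of 16 members negative and 0 of 16 at p under 0.05. Without tamoxifen replicate 2 the median was 0.02. Slc26a7, an anion transporter of parietal cells, fell by 2.75 without rapamycin and by 2.96 with it, an interaction of -0.21 ± 0.30. Among 15 mTORC1 pathway genes the median was -0.16, and Castor1, an arginine sensor upstream of mTORC1, was the one member at p under 0.05, with -0.61 ± 0.26. Leaving out each array in turn moved Castor1 between -0.89, without vehicle replicate 1, and -0.32, without vehicle replicate 2.

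**Figure D2:**
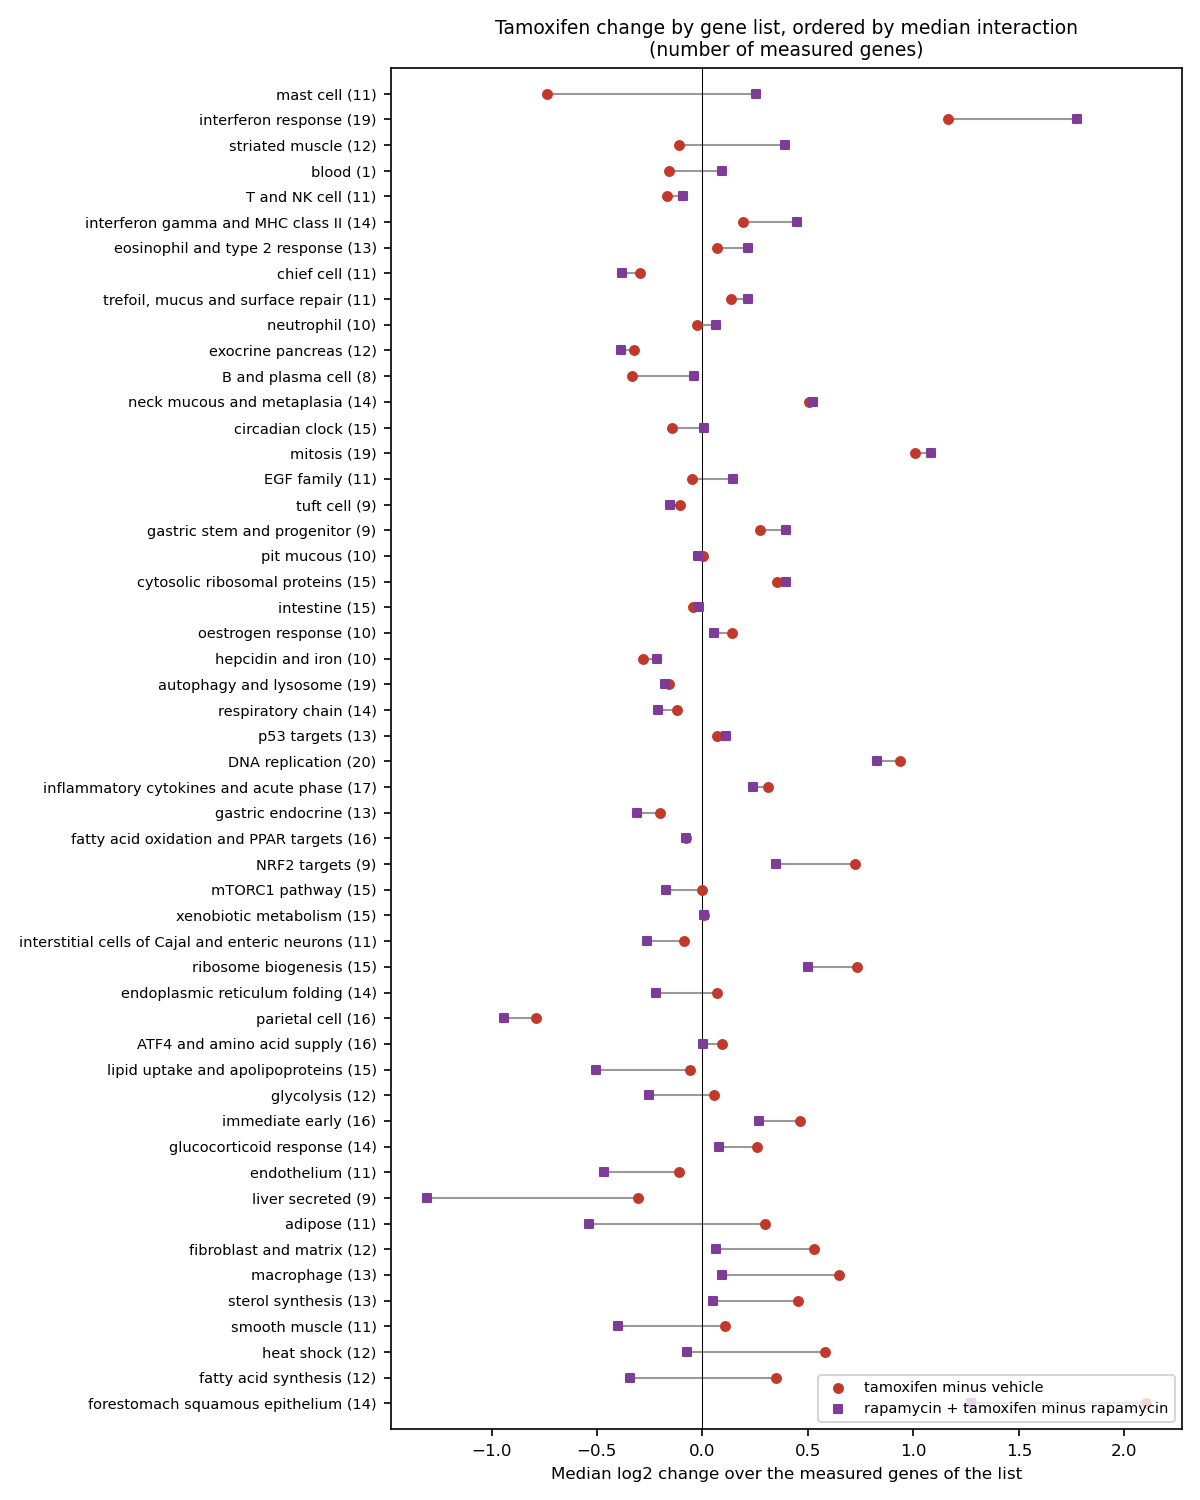
For each of 52 gene lists, a circle marks the median log2 tamoxifen change against vehicle and a square the median change of the combined group against rapamycin, with the number of measured genes in brackets. Lists are ordered by median interaction, from forestomach squamous epithelium at -1.14, whose genes differ between arrays within groups, to mast cell at 1.07, and the mitosis pair nearly coincides at 1.01 and 1.08.

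Rapamycin's own changes were few, and for the 9 genes it lowered the difference was smaller where tamoxifen was present. Rapamycin alone lowered 9 genes (0.0406%) and raised 2 (0.00902%) against vehicle, with 1977 genes at an unadjusted p under 0.05. With tamoxifen on both sides it lowered 0 and raised 0 (0%), with 1257 genes at that unadjusted p. The comparison with tamoxifen had 2 arrays against 2 and that without it 3 against 2, so its errors were somewhat larger. The 9 lowered genes were Atp6v0d2, St3gal4, Pla2g4c, Mcpt1, Tpsb2, Mcpt-ps1, Il31ra, Mcpt2 and Lypd8. Their median rapamycin difference was -2.73 without tamoxifen, on which they were picked, and -0.38 with it, a comparison that shares no arrays with the first. The raised genes were Chst4 and Per1, a circadian clock gene. Per1 stood 1.26 higher without tamoxifen and 0.76 higher with it, and was named because of its call here. Since the interaction uses the same vehicle and rapamycin arrays as the first comparison, its values for these genes are not separate evidence.

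Atp6v0d2, encoding the d2 subunit of the membrane sector of the vacuolar proton pump and best known from osteoclasts and macrophages, had one of the 2 smallest adjusted p-values. It read 8.0 and 8.92 with vehicle, 8.71 and 8.08 with tamoxifen, 4.21, 3.70 and 3.59 with rapamycin, and 7.46 and 7.42 with both drugs. The 3 rapamycin arrays stood far below all others, and the combined arrays lay below the vehicle and tamoxifen arrays without overlap. The additive expectation was 3.77 and the observed mean 7.44, an interaction of 3.68 ± 0.45 (limma adjusted p 0.223). With rapamycin alone the gene fell by 4.63 log2 units (adjusted p 0.00132). The tamoxifen difference was -0.07 without rapamycin, and tamoxifen raised it by 3.61 on rapamycin (adjusted p 0.00147). Leaving out each array in turn kept the interaction between 3.21 and 4.14. The 13 macrophage genes as a list leaned the other way, with a median interaction of -0.46, 12 negative and 1 positive. Of these, 0 were at p under 0.05, and leaving out each array in turn moved the list median between -0.66 and -0.07.

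St3gal4, an enzyme that caps glycans with sialic acid, had the other smallest adjusted p. It read 8.46 and 8.86 with vehicle, 6.86 and 6.70 with tamoxifen, 6.05, 5.97 and 5.76 with rapamycin, and 6.44 and 6.04 with both. The vehicle arrays stood above all others, and the combined arrays lay between the single-drug groups and touched the rapamycin range. It fell by 1.88 with tamoxifen alone (adjusted p 0.00650) and fell by 2.73 with rapamycin alone (adjusted p 0.00132), which would put the combined mean at 4.05. It was observed at 6.24, an interaction of 2.19 ± 0.27 (adjusted p 0.223).

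Pla2g4c, a cytosolic phospholipase A2, followed a similar course. It read 9.26 and 10.01 with vehicle, 8.29 and 8.49 with tamoxifen, 6.16, 6.26 and 6.11 with rapamycin, and 7.78 and 7.07 with both. None of the 4 groups overlapped. The interaction was 2.49 ± 0.38 (limma adjusted p 0.592), and tamoxifen on top of rapamycin raised the gene by 1.25 (adjusted p 0.0411). Lypd8, a secreted and membrane-anchored epithelial protein, read 12.64 and 12.34, 12.82 and 13.19, 11.19, 11.25 and 11.26, and 12.58 and 12.48 in the same order of groups. It fell by 1.25 with rapamycin alone and tamoxifen on rapamycin raised it by 1.30 (adjusted p 0.0407 and 0.00473), with an interaction of 0.78 ± 0.23.

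**Figure D3:**
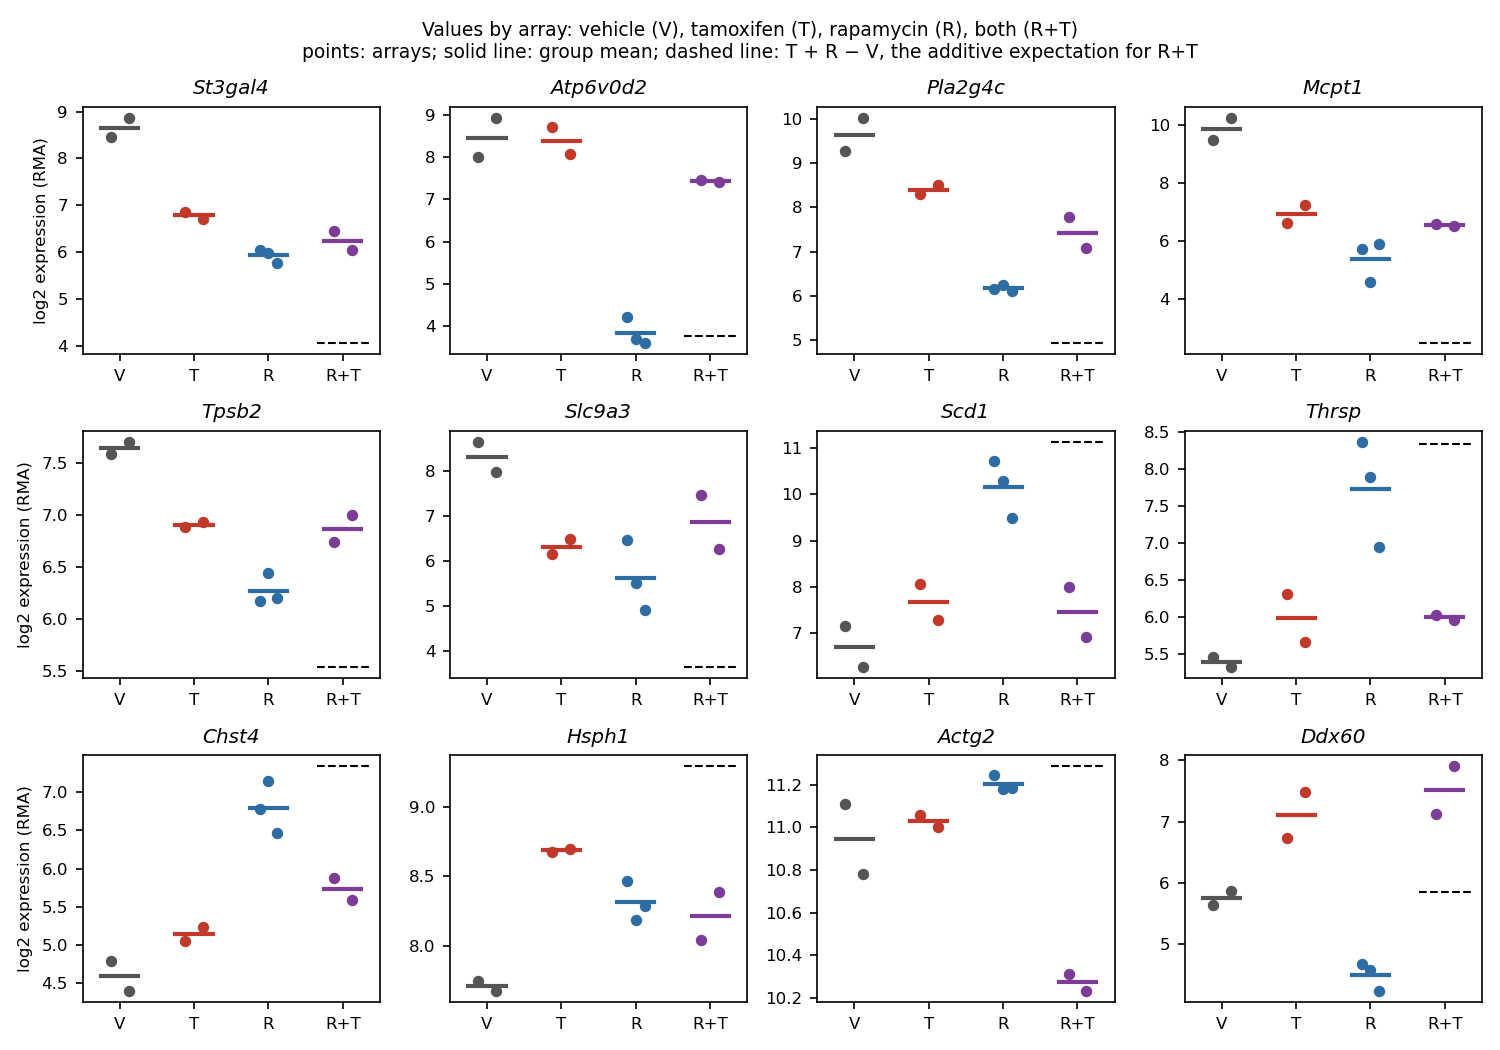
Log2 expression of 12 genes on each of the 9 whole-stomach arrays (points) with group means (solid lines), and the additive expectation for the combined group as a dashed line; each panel has its own y axis. The combined arrays sit above the dashed line for St3gal4, Atp6v0d2, Pla2g4c, Mcpt1, Tpsb2, Slc9a3 and Ddx60 and below it for Scd1, Thrsp, Chst4, Hsph1 and Actg2.

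Mast cell genes had the highest list median. Mast cells are tissue-resident granulocytes that store proteases and histamine, and mucosal mast cells of the mouse gut express the chymases Mcpt1 and Mcpt2. The mean of 11 mast cell genes was 6.76 and 7.15 with vehicle, 5.55 and 6.10 with tamoxifen, 5.50, 5.49 and 5.61 with rapamycin, and 5.67 and 5.64 with both drugs. The vehicle arrays stood alone on top, and the tamoxifen range held the combined arrays and overlapped the rapamycin range. The median interaction was 1.07, against -0.01 over all genes, and 7 of 11 members had a positive interaction at p under 0.05 and 0 a negative one, against backgrounds of 1.27% and 1.56%. Without tamoxifen replicate 1 or without combined replicate 1 the count was 4.

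Mcpt1 had the largest estimate of the mast cell genes. It read 9.49 and 10.23 with vehicle, 6.64 and 7.25 with tamoxifen, 5.71, 4.58 and 5.91 with rapamycin, and 6.60 and 6.53 with both. The vehicle arrays stood above all others, the rapamycin arrays below all others, and the combined arrays lay just under the tamoxifen arrays. It fell by 2.92 with tamoxifen alone and fell by 4.46 with rapamycin alone (limma adjusted p 0.0169 and 0.00758). The additive expectation of 2.48 lies at the 5th percentile of all array values, 2.50, where the arrays may hold little signal. The interaction was 4.08 ± 0.58 (adjusted p 0.492).

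Mcpt2 read 8.55 and 9.87, 6.59 and 7.54, 5.51, 5.37 and 6.04, and 6.50 and 6.95 in the same order, with an interaction of 3.23 ± 0.61. Mcpt1, Mcpt2 and the pseudogene Mcpt-ps1 (1.26 ± 0.25) are close relatives whose probes may share signal, so their values are not independent of each other. Tpsb2, a tryptase of another protease family, read 7.59 and 7.70 with vehicle, 6.89 and 6.93 with tamoxifen, 6.18, 6.44 and 6.20 with rapamycin, and 6.74 and 6.998 with both, an interaction of 1.33 ± 0.21. Its combined arrays enclosed the tamoxifen arrays and lay above the rapamycin arrays. Cpa3, the mast cell carboxypeptidase, read 8.93 and 9.73 with vehicle and 7.31 to 8.51 on the other 7 arrays, with an interaction of 1.51 ± 0.45.

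Kit, the receptor for stem cell factor, which interstitial cells of Cajal also carry, fell by 1.34 with tamoxifen alone and fell by 1.76 with tamoxifen on rapamycin, an interaction of -0.41 ± 0.27. Gata2, a transcription factor of mast cells, stood at -0.05 ± 0.26 and Tpsab1, another tryptase, at 0.20 ± 0.36. GATA factors are known to act on mast cell genes through the motif GATAAG, searched here on both strands from 250 bases before to 50 after each start. It was in 3 of 10 mast cell promoter windows and in 7.44% of all 32851 windows. The Mcpt1 window (RefSeq, GRCm38.p6, chr14:56017714-56018013, plus strand) is shown because the gene had the largest estimate, with the motif in capitals at -98 from the start. A match is a description of the letters only.
Mcpt1: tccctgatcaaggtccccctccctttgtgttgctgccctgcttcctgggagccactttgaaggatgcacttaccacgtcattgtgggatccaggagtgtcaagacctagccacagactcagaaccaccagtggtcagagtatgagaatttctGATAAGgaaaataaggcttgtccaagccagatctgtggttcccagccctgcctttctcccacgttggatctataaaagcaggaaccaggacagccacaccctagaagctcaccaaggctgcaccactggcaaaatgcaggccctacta

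Interferon-stimulated genes, the antiviral effectors switched on by type I interferon, had the next highest list median. The mean of 19 genes was 6.19 and 6.06 with vehicle, 6.90 and 7.66 with tamoxifen, 5.78, 5.57 and 5.50 with rapamycin, and 7.23 and 7.62 with both drugs. Both tamoxifen-treated groups stood above both others, the rapamycin arrays were lowest, and the combined range lay inside the tamoxifen range. Tamoxifen raised 3 of 19 members without rapamycin (median 1.16) and 14 of 19 with it (median 1.78), against 0.933% and 1.13% of all genes. Rapamycin without tamoxifen gave a median of -0.51 and with tamoxifen of 0.18, and called 0 members in either. Of all genes it called 0.0406% lower and 0.00902% higher without tamoxifen, and 0% with tamoxifen. The median interaction was 0.58, with 6 of 19 members positive at p under 0.05 and 0 negative, against backgrounds of 1.27% and 1.56%.

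The tamoxifen arrays themselves differed for these genes, replicate 1 being lower. Without tamoxifen replicate 2 the count at p under 0.05 was 12, without combined replicate 1 it was 10, and without vehicle replicate 1, tamoxifen replicate 1 or combined replicate 2 it was 4. On unlogged values it was 2. A larger number of calls with rapamycin than without is no test of a difference, and the test of the difference called 0 members.

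Ddx60, an RNA helicase of antiviral sensing, read 5.65 and 5.87 with vehicle, 6.74 and 7.48 with tamoxifen, 4.67, 4.58 and 4.23 with rapamycin, and 7.12 and 7.90 with both. The rapamycin arrays lay lowest and the combined and tamoxifen arrays overlapped. Its tamoxifen difference was 1.35 without rapamycin (limma adjusted p 0.0758) and 3.01 with it (adjusted p 0.00230), an interaction of 1.67 ± 0.42. Irf7, the transcription factor that amplifies interferon production, had 1.64 ± 0.44, and Oasl2, of the oligoadenylate synthetase family, 1.33 ± 0.38. Members with small estimates included Ifit3 at -0.39 ± 0.33 and Oasl1 at -0.14 ± 0.29, both antiviral effectors. Gbp3, a guanylate-binding protein from the separate interferon gamma list, read 5.24 and 5.29, 5.64 and 5.99, 5.34, 4.87 and 4.64, and 6.78 and 6.97 in the order vehicle, tamoxifen, rapamycin, both. Its combined arrays stood above all others, with an interaction of 1.38 ± 0.31. Gbp3 was the highest of the 14 measured members of that list and its sole member at p under 0.05. The list median was 0.23, with 10 estimates positive and 4 negative, down to -0.50. Leaving out each array in turn moved this median between -0.07 and 0.44.

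Interferon-stimulated genes are known to be bound through the interferon-stimulated response element, whose core was searched as GAAANNGAA on both strands. It was in 8 of 14 promoter windows of the list (57.1%) and in 8.56% of all windows. The windows of Irf7 and Oasl2 had 0 matches, which says only that these letters are not there. The Ddx60 window (RefSeq, GRCm38.p6, chr8:61927837-61928136, plus strand) is shown as the member of largest estimate, with its 2 matches in capitals, the nearer at -19.
Ddx60: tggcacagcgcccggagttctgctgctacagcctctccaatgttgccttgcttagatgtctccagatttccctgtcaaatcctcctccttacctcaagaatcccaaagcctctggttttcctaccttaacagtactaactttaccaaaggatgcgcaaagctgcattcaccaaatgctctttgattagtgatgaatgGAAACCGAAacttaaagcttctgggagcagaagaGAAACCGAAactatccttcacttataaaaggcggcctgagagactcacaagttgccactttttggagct

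**Figure D4:**
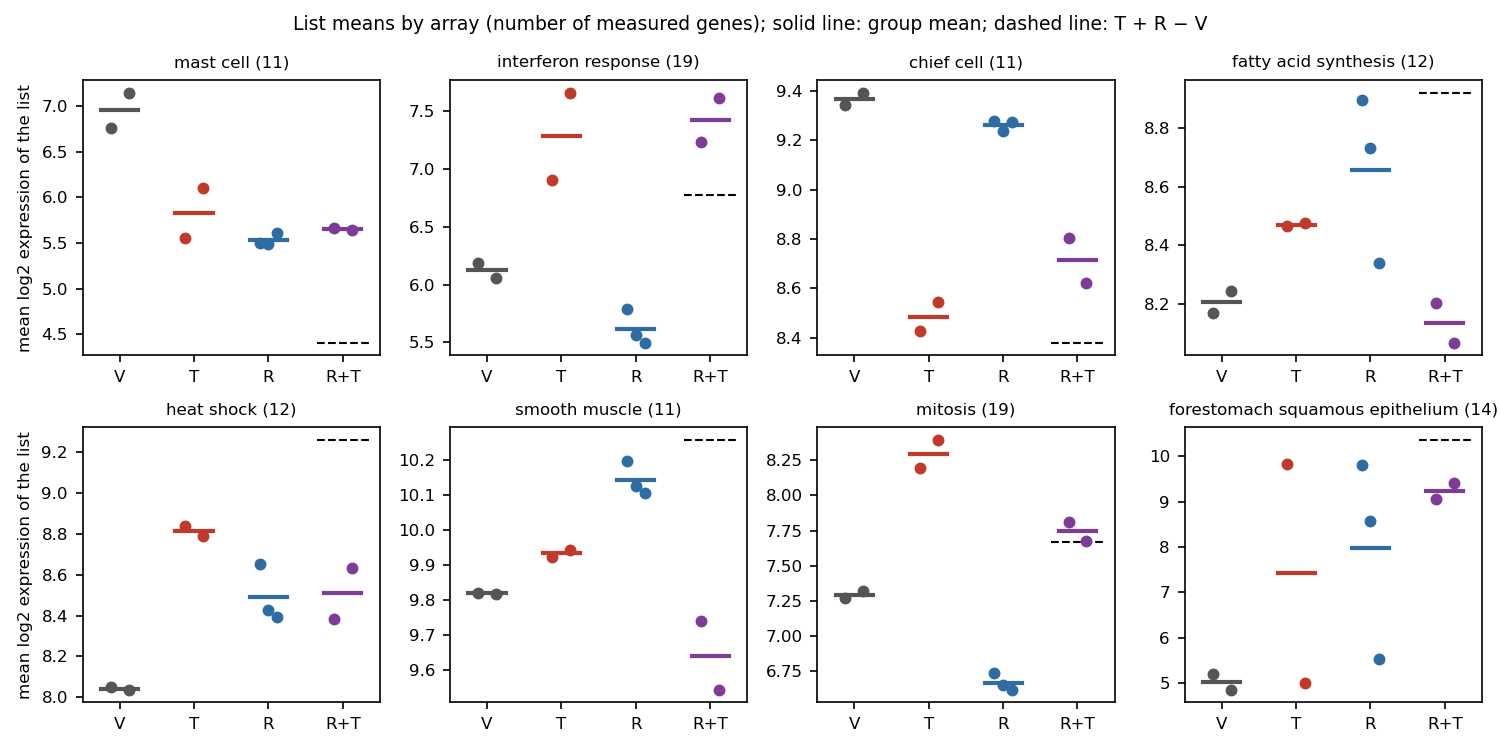
Mean log2 expression of 8 gene lists on each whole-stomach array (points), with group means (solid lines) and the additive expectation for the combined group (dashed line); each panel has its own y axis. Combined arrays sit above the dashed line for mast cell, interferon response and chief cell genes and below it for fatty acid synthesis, heat shock, smooth muscle and squamous genes, while for mitosis the lower combined array, at 7.68, lies on it.

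Chief cells store pepsinogen and other digestive proteins at the gland base. The mean of 11 chief cell genes was 9.34 and 9.39 with vehicle, 8.43 and 8.54 with tamoxifen, 9.28, 9.24 and 9.27 with rapamycin, and 8.81 and 8.62 with both. None of the 4 groups overlapped, and the combined arrays lay between the tamoxifen arrays and the rest. Tamoxifen lowered 4 members without rapamycin and 3 with it, against 0.784% and 1.32% of all genes, and the median tamoxifen difference was -0.30 without and -0.38 with rapamycin. The median interaction was 0.19, with 4 of 11 members positive at p under 0.05 and 0 negative, against backgrounds of 1.27% and 1.56%. Without combined replicate 1 the count of positive members was 0. Mlxipl, a glucose-responsive transcription factor, was the one member with a negative estimate, at -0.78 ± 0.36.

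Those 4 were Cblif, Pga5, Chia1 and Bhlha15. Pga5, encoding a pepsinogen, read 9.56 and 10.41 with vehicle, 5.87 and 6.81 with tamoxifen, 9.29, 8.96 and 9.30 with rapamycin, and 7.47 and 6.76 with both. It fell by 3.64 with tamoxifen alone and fell by 2.07 with tamoxifen on rapamycin (limma adjusted p 0.00650 and 0.0182), an interaction of 1.58 ± 0.51. Cblif, the gastric intrinsic factor, fell by 1.60 and fell by 1.04, an interaction of 0.56 ± 0.18. Chia1, an acidic chitinase, had 0.78 ± 0.26, and Bhlha15, the transcription factor Mist1 that maintains the secretory apparatus, had 0.64 ± 0.27. Pgc stood at 0.03 ± 0.17. Muc6, the mucin of neck cells, read 12.18 and 12.82, 10.22 and 10.94, 11.95, 11.59 and 11.81, and 11.81 and 10.93 in the order vehicle, tamoxifen, rapamycin, both, with an interaction of 1.51 ± 0.46. Over the 14 genes of its list, neck mucous and metaplasia, the median was 0.11, and 8 estimates were positive and 6 negative. Muc6 was the one positive member at p under 0.05 and Gpx2, a glutathione peroxidase, the one negative member, at -0.47 ± 0.19.

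Cym, encoding the milk-clotting protease chymosin, read 10.66 and 9.60 with vehicle, 8.61 and 9.08 with tamoxifen, 9.13, 7.76 and 8.24 with rapamycin, and 10.37 and 10.30 with both. The combined arrays fell within the vehicle range and above both single-drug groups, and the interaction was 3.24 ± 0.60. Slc9a3, a sodium-proton exchanger, read 8.64 and 7.97, 6.16 and 6.48, 6.47, 5.50 and 4.92, and 7.47 and 6.26 in the same order, an interaction of 3.22 ± 0.70. Its combined arrays differed between themselves and overlapped the tamoxifen and rapamycin arrays.

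Gast, encoding gastrin, the antral hormone that drives acid secretion, read 6.46 and 6.42 with vehicle, 6.48 and 6.00 with tamoxifen, 8.30, 6.28 and 6.71 with rapamycin, and 9.73 and 9.08 with both. The combined arrays stood above all others, and rapamycin replicate 1 was high within its group. The interaction was 2.51 ± 0.75. Tph1, which makes serotonin, had 1.66 ± 0.42 and the antimicrobial lectin Reg3g 1.73 ± 0.47. For Reg3g the rapamycin arrays, at 3.03 to 3.64, stood alone below the other 6, at 5.07 to 6.08. Those rapamycin values lie near the 10th percentile of all array values, 3.06, where the arrays may hold little signal. The list of Reg3g, trefoil, mucus and surface repair, had a median of 0.14, with 7 of 11 positive and 4 negative. Ereg, of the EGF family, was its negative member at p under 0.05, at -1.45 ± 0.51. The 13 endocrine genes as a list had a median of -0.12, and without vehicle replicate 2 it was 0.05.

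Txnip, which restrains glucose uptake, varied little between arrays of a group. It read 11.87 and 11.76 with vehicle, 10.97 and 11.11 with tamoxifen, 11.40, 11.66 and 11.64 with rapamycin, and 11.72 and 11.74 with both. Only the tamoxifen arrays stood below the rest, and it fell by 0.78 with tamoxifen alone (limma adjusted p 0.0372) against a difference of 0.16 with it, an interaction of 0.94 ± 0.20. Mir9-1, a precursor of microRNA miR-9, had 0.95 ± 0.19, and both of its probe sets were positive. The array reports the precursor gene and does not separate the mature strands, whose RefSeq sequences (GRCm38.p6, chr3:88215613-88215635 and chr3:88215652-88215673, plus strand) are shown with the seed in capitals.
mmu-miR-9-5p: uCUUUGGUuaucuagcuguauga
mmu-miR-9-3p: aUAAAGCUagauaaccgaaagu

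On the negative side, Scd1, a gene of fat synthesis, had the lowest of the estimates named. mTORC1 is known to promote lipogenesis through the transcription factor SREBP1, and Scd1, the desaturase that makes monounsaturated fatty acids, is one of its targets. Scd1 read 7.16 and 6.26 with vehicle, 8.06 and 7.28 with tamoxifen, 10.71, 10.30 and 9.48 with rapamycin, and 8.003 and 6.92 with both drugs. The 3 rapamycin arrays stood above the other 6, which overlapped. The rapamycin difference was 3.45 without tamoxifen (limma adjusted p 0.0678) and -0.21 with it, and the gene fell by 2.70 with tamoxifen on rapamycin (adjusted p 0.0199). The combined mean of 7.46 against an expectation of 11.13 gave an interaction of -3.66 ± 0.68. Thrsp, a lipogenic regulator, read 5.46 and 5.32, 6.31 and 5.66, 8.36, 7.89 and 6.95, and 6.03 and 5.96 in the same order, and also stood highest on the rapamycin arrays, with -2.34 ± 0.54.

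Over 12 fatty acid synthesis genes the median interaction was -0.72, with 5 negative at p under 0.05 and 0 positive, against backgrounds of 1.56% and 1.27%. The list mean was 8.17 and 8.24 with vehicle, 8.47 and 8.48 with tamoxifen, 8.90, 8.73 and 8.34 with rapamycin, and 8.20 and 8.07 with both. Rapamycin replicate 3 was low within its group, and without it the count at p under 0.05 was 8. Without tamoxifen replicate 1, combined replicate 1 or combined replicate 2 it was 3. The 5 members were Scd1, Pnpla3, a lipid droplet protein (-1.21 ± 0.44), Fasn, the fatty acid synthase (-0.82 ± 0.34), and the desaturases Fads1 (-0.77 ± 0.22) and Fads2 (-0.69 ± 0.25). Srebf1 itself, which encodes SREBP1, stood at -0.40 ± 0.25.

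Fat-tissue genes also had a negative median. The mean of 11 adipose genes was 6.16 and 5.93 with vehicle, 6.56 and 5.82 with tamoxifen, 7.31, 7.32 and 6.77 with rapamycin, and 6.93 and 6.06 with both drugs. Their median interaction was -0.42, with 10 of 11 negative, and members ran from -2.81 to 0.28. At p under 0.05, 1 of 11 was negative (background 1.56%), Fabp4, a fatty acid carrier, at -0.70 ± 0.26. Leaving out each array in turn moved the list median between -0.73 and -0.23. The fat hormone gene Adipoq read 4.93 and 3.85, 6.01 and 3.75, 6.89, 7.52 and 6.38, and 6.69 and 5.34 in the same order, with combined replicate 1 inside the rapamycin range. Fabp4 read 9.23 and 9.18 with both drugs, below the rapamycin arrays at 9.70 to 10.02. The part of fat tissue in the lipid result was not tested.

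Sterol synthesis leaned the same way with smaller values. All 13 genes had a negative interaction, with a median of -0.54 and 3 at p under 0.05, against a background of 1.56%. Pmvk, a kinase of the mevalonate pathway, was raised by tamoxifen by 1.27 without rapamycin (limma adjusted p 0.00914) and stood 0.65 higher with it, an interaction of -0.62 ± 0.21. Insig1, the sterol-sensing brake on the pathway, had -0.74 ± 0.25. The list depended on single arrays, with 6 members at p under 0.05 without vehicle replicate 2, 2 without rapamycin replicate 1, 1 without vehicle replicate 1 or tamoxifen replicate 2, and 0 without combined replicate 2.

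Heat shock genes, the chaperones induced when proteins misfold, had lower list means with vehicle than in the other 3 groups. The mean of 12 genes was 8.05 and 8.04 with vehicle, 8.84 and 8.79 with tamoxifen, 8.65, 8.43 and 8.39 with rapamycin, and 8.38 and 8.63 with both. The vehicle arrays stood below all others, and the combined range overlapped the rapamycin range. Tamoxifen raised 3 members without rapamycin and 1 with it, against 0.933% and 1.13% of all genes. Rapamycin alone raised 0, against 0.00902% of all genes. The median interaction was -0.64, with 5 of 12 negative at p under 0.05 and 0 positive, against backgrounds of 1.56% and 1.27%.

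Hsph1, a co-chaperone of Hsp70, read 7.75 and 7.68 with vehicle, 8.68 and 8.70 with tamoxifen, 8.47, 8.19 and 8.29 with rapamycin, and 8.05 and 8.39 with both. Tamoxifen raised it by 0.97 without rapamycin (limma adjusted p 0.0244), and the difference with rapamycin was -0.10, an interaction of -1.07 ± 0.22. Hspa1b, an inducible Hsp70 gene, read 6.69 and 6.73, 9.02 and 8.79, 8.53, 7.87 and 7.77, and 8.15 and 9.03 in the same order, with -1.66 ± 0.43, and its neighbour Hspa1a had -1.80 ± 0.48. Only the vehicle arrays were set apart from the rest. Cryab (-0.75 ± 0.27) and Hsp90aa1 (-0.53 ± 0.18) were the other members at p under 0.05, while the mitochondrial chaperones Hspd1 and Hspe1 stood at -0.17 ± 0.19 and 0.14 ± 0.45.

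The promoters of Hspa1b and Hspa1a are shown because these genes had the lowest values of the list and are near copies, identical at 296 of 300 bases here, so their probes may also share signal. Heat shock factor is known to bind inverted GAA repeats, searched here as GAANNTTC, a palindrome that reads the same on both strands. It was in 9 of 12 heat shock windows (75.0%) and in 7.86% of all windows. These 12 windows are not 12 separate genes, since Hsph1 has 2 overlapping windows with the same match. The motif is in capitals at -104 in the Hspa1b and Hspa1a windows. The windows are RefSeq, GRCm38.p6, minus strand, chr17:34959189-34959488 for Hspa1b and chr17:34972107-34972406 for Hspa1a.
Hspa1b: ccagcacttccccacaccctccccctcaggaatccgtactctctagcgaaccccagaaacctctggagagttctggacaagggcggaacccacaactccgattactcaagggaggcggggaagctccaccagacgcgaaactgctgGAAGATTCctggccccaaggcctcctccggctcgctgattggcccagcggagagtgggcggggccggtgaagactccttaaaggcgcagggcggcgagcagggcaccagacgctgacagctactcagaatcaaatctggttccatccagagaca
Hspa1a: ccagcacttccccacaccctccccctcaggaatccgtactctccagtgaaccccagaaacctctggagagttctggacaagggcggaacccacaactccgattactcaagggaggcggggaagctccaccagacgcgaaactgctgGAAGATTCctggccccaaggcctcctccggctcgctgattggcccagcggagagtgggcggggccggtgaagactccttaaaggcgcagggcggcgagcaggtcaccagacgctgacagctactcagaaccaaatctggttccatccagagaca

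Contractile genes of smooth muscle, which forms the stomach wall, were lowest with both drugs. The mean of 11 genes was 9.82 on both vehicle arrays, 9.92 and 9.94 with tamoxifen, 10.20, 10.12 and 10.11 with rapamycin, and 9.74 and 9.54 with both. None of the 4 groups overlapped. All 11 interactions were negative, with a median of -0.58, and 6 were at p under 0.05, against a background of 1.56%. Without combined replicate 2 the count was 3, and without tamoxifen replicate 1 it was 4.

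Actg2, the gamma actin of visceral smooth muscle, read 11.11 and 10.78 with vehicle, 11.06 and 11.00 with tamoxifen, 11.25, 11.18 and 11.18 with rapamycin, and 10.31 and 10.23 with both. The combined arrays stood below all others. It fell by 0.93 with tamoxifen on rapamycin (limma adjusted p 0.00931) and stood at 0.08 with tamoxifen alone, an interaction of -1.01 ± 0.20. Des, the muscle intermediate filament desmin, had -0.91 ± 0.25 and Cnn1, the actin-binding calponin, -0.82 ± 0.26. Genes of the matrix and vessel wall were also among the smallest p-values, with Eln, encoding elastin, at -1.0 ± 0.21 and Itga8, an integrin of smooth muscle, at -0.79 ± 0.17. The 12 fibroblast genes had a median of -0.42 and the 11 endothelial genes of -0.31. In each list 1 member was negative at p under 0.05, against a background of 1.56%. Without tamoxifen replicate 1 the fibroblast count was 5 and the median -0.68, and without tamoxifen replicate 2 they were 0 and -0.10. The endothelial count was 0 and the median -0.16 without combined replicate 1, and 2 and -0.47 without combined replicate 2. Skeletal muscle genes had a median of 0.51 with 0 of 12 at p under 0.05, and their mean was 6.09 on combined replicate 1 against 5.05 to 5.32 on the other 8 arrays. Without combined replicate 1 their median was 0.02, and without combined replicate 2 it was 0.94 with 8 members at p under 0.05.

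Some genes that tamoxifen raised stood lower in the combined group than the additive expectation. Guca2b, encoding the gut peptide uroguanylin, read 5.34 and 5.18 with vehicle, 7.05 and 7.78 with tamoxifen, 5.22, 5.26 and 5.38 with rapamycin, and 5.98 and 6.15 with both. The combined arrays lay between the tamoxifen arrays and the rest. Tamoxifen raised it by 2.15 without rapamycin (limma adjusted p 0.00650), and the difference with rapamycin was 0.78, an interaction of -1.37 ± 0.30. Vnn1, a pantetheinase, had -1.44 ± 0.34, with tamoxifen differences of 2.24 and 0.80. Cyp2b10, a drug-metabolizing cytochrome, had -1.31 ± 0.58, and its tamoxifen arrays read 8.36 and 6.90. Tubb6, a beta tubulin, had the smallest p of the negative genes. It read 7.27 and 7.20, 8.04 and 8.18, 8.19, 7.98 and 7.95, and 7.79 and 7.31 in the same order, an interaction of -1.36 ± 0.25.

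Chst4, a sulfotransferase of mucin-type glycans, is the one gene that rapamycin raised and that was also among the 12 negative genes. It read 4.79 and 4.39 with vehicle, 5.04 and 5.23 with tamoxifen, 6.78, 7.14 and 6.47 with rapamycin, and 5.87 and 5.59 with both. None of the 4 groups overlapped. Rapamycin raised it by 2.21 alone (limma adjusted p 0.0144) and it fell by 1.06 with tamoxifen on rapamycin (adjusted p 0.0403), an interaction of -1.61 ± 0.32.

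**Figure D5:**
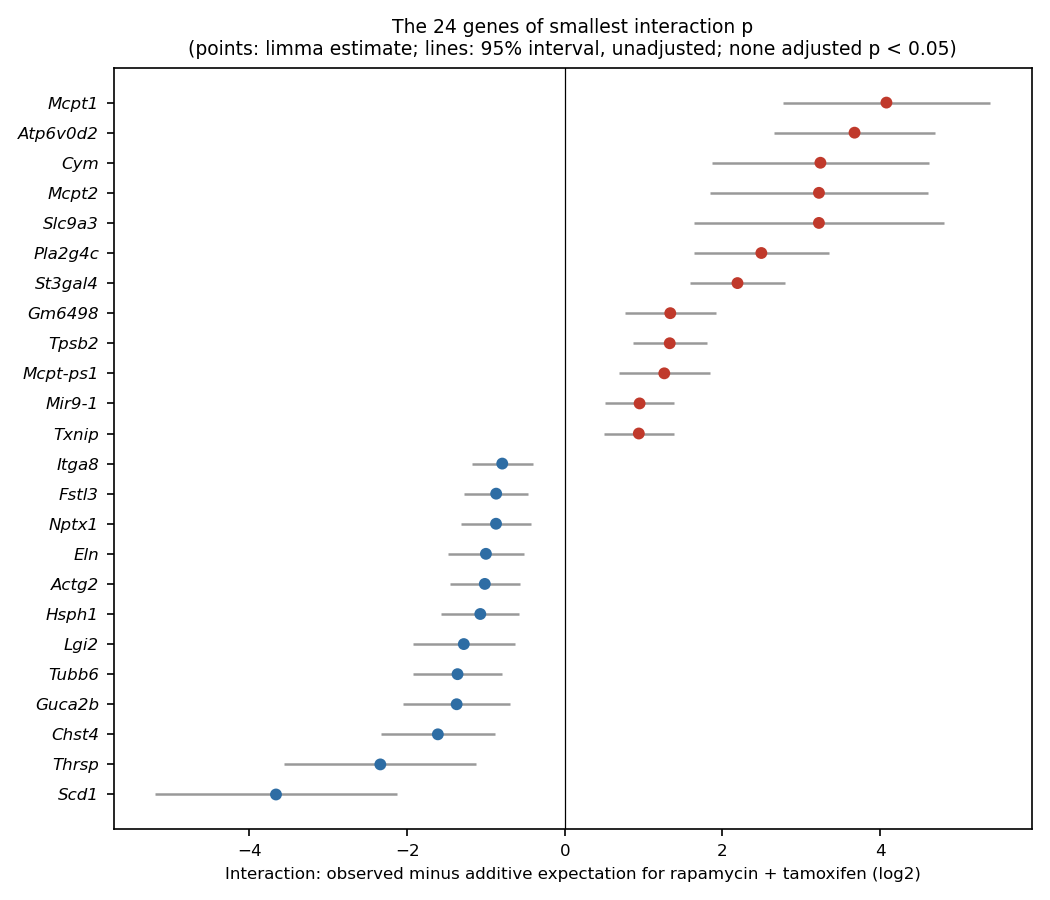
Interaction estimates (points, log2 units) with unadjusted 95% intervals (lines) for the 12 genes of smallest p on the positive side (red) and the 12 on the negative side (blue). The genes were picked by p, so every interval excludes 0 by that choice, and none passed adjustment over 22180 genes; estimates run from -3.66 for Scd1 to 4.08 for Mcpt1.

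All 12 positive genes had both single-drug means below vehicle and all 12 negative genes had both above it. The vehicle arrays enter these differences and the interaction alike, so this shape follows in part from how the genes were picked. On the arrays of separated cells, 5 of the 12 positive genes were at least 1 log2 unit lower in parietal cells than in the other cells (41.7%, against 6.46% of all genes) and 1, Slc9a3, was at least 1 higher, by 4.38. Those 5 were Atp6v0d2, at -3.25, and Mcpt1, Mcpt2, Tpsb2 and Mcpt-ps1, from -7.48 to -4.24. Of the 12 negative genes, Tubb6 alone differed by that much, at -1.10. Several of them read low in both fractions, such as Scd1 at 2.57 in parietal and 2.76 in other cells, and Itga8 at 2.41 and 2.71. The 10th percentile of the whole-stomach array values was 3.06, so a small difference there says little. Each fraction had 1 array, so there is no test.

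A further view asks where 1 group stood by itself, with its mean at least 1 log2 unit from the nearest of the other 3 and those 3 within 0.75 of each other. Such patterns were found in 44 genes, 0.198% of all, and in 26 of them the lone arrays did not overlap any other. Vehicle alone was high in 7 genes and low in 17, with no overlap in 7 and 5 of these. Rapamycin alone was high in 11 and low in 4, with no overlap in 7 and 3 of these. Tamoxifen alone was high in 1 and low in 1, and the combined group was high in 3 and low in 0.

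Among the vehicle-high genes were the mast cell genes Mcpt-ps1 and Cpa3, the cytokine receptor Il31ra and the chitinase-like Chil5. Il31ra read 5.86 and 5.97 with vehicle and 4.35 to 4.94 on the other 7 arrays, an interaction of 0.76 ± 0.18. The vehicle-low genes include Hspa1a, the complement gene C7 (-1.68 ± 0.56) and the tight junction gene Cldn1, whose tamoxifen arrays at 7.27 and 5.01 differ as the squamous genes do. The rapamycin-high genes include Thrsp, Pnpla3, the collagen prolyl hydroxylase P4ha3 (-1.14 ± 0.34) and the neurturin receptor Gfra2 (-1.06 ± 0.43).

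The combined-high genes whose arrays stood apart were Upk1b and Scarna6. Upk1b, a uroplakin, read 6.95 and 7.14 with both drugs and 5.51 to 6.30 on the other 7 arrays, an interaction of 1.26 ± 0.40. Scarna6, a small Cajal body RNA, read 9.67 and 10.23 with both and 8.16 to 9.43 elsewhere, with 1.49 ± 0.58. Spink4, a peptide of mucous cells, was the gene low with tamoxifen alone, at 7.45 and 8.11 against 8.86 to 9.80 on the other 7 arrays. It fell by 1.61 with tamoxifen alone (limma adjusted p 0.0313) and stood at -0.30 with tamoxifen on rapamycin, an interaction of 1.32 ± 0.39.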

How the data were processed

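RNA was amplified, biotin-labelled and hybridised to Affymetrix arrays, per the labels. The authors deposited log2 values that RMA in Partek produced, per the submitters' processing notes. Neither version nor settings were stated, and the number of arrays limits the precision. Array medians were 4.95 to 5.09. Of 41345 probe sets, 23521 named 1 gene symbol, 1814 several and 16010 none; keeping the probe set of highest mean per symbol, with no filter, gave 22180 genes (1082 with several probe sets). RefSeq tables (GRCm38.p6) matched 23328 probe sets by gene ID and changed 0 symbols.

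The 4 group means were fitted with limma 3.58.1 (lmFit and eBayes, R 4.3.3; 5 residual degrees of freedom, prior 3.86), two-sided, with Benjamini-Hochberg adjustment over all genes and a threshold of 0.05. Errors after ± are standard errors. The fit was tested on simulated data. Genes named were the 12 of smallest p on each side, up to 3 members per list at unadjusted p under 0.05, and 4 per lone-group pattern; other genes were named after their values were seen. The 52 lists held 735 entries, 668 measured. Lists, rule and members were chosen with earlier results of these data known. Alternatives covered normalization, filtering, probe sets, weights, scale, a squamous covariate, a replicate block and leaving out each array.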

Additional observations from a re-analysis of the deposited data

How the results depend on the processing

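The count of 0 genes called for the interaction held under every alternative except the replicate block. Replicate numbers are shared by the groups in the labels. Deviations of same-numbered arrays correlated at 0.56 between vehicle and tamoxifen and at 0.41 between tamoxifen and rapamycin replicate 1. The other pairs ran from -0.11 to 0.04. These values do not settle whether the numbers pair the samples. With the replicate block 1 gene was called, Scd1, at -4.01 (limma adjusted p 0.0249), and 784 genes had p under 0.05. The smallest adjusted p was 0.0897 with an intensity trend and robust fit and 0.0957 with the squamous covariate. The 627 genes at unadjusted p under 0.05 became 1263 with every probe set by itself, where more features were tested. Leaving out 1 array gave 0 to 0 called and 440 to 1131 at p under 0.05, the counts being 1131 and 998 without vehicle replicate 1 and 2 and 989 and 1083 without tamoxifen replicate 1 and 2, where the lone array is assumed to vary like the other groups; the cause was not tested. Of 1472 recomputed values of named genes 1470 kept their direction, but the genes had been picked by small interaction p on all the arrays. Nop56 turned to 0.0079 with the mean of its 3 probe sets, and Cldn1 to 0.16 without tamoxifen replicate 1 (-2.10 without tamoxifen replicate 2). Of 884 recomputed list medians 762 moved by less than 1 SD. With dim genes left out, 14387 genes remained. Arrays give no count of molecules, and signal over background was not used here.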
